A study of Mus musculus with 4 samples.

Results

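Lysine transfer RNA (tRNA) genes were examined in small RNA libraries of mouse sperm. Members were all tRNA features named for lysine, which gave 35 genes of the 438 tRNA genes and of the 2150 features in the small RNA classes. Of these, 25 carry the anticodon CTT and 10 the anticodon TTT. Their names place them in 22 sequence groups, 18 for CTT and 4 for TTT, where genes that share the first number after the anticodon form 1 group and the last number counts its gene copies. The libraries came from sperm of the cauda epididymis of adult C57BL/6 mice, labelled spermatozoa, with 1 library per mouse and 2 mice for each of 2 breeding schemes, the original cross and the extra cross to wildtype. The title of the study compares sperm by their susceptibility to epigenetic silencing of a LoxP site, the recognition sequence of Cre recombinase. The labels give no genotype and do not say which cross was susceptible. The unit of the deposited tables is RPM, read numbers that the authors scaled by library size. Each replicate number has a table with 1 library of each cross, and pairs of values below give the original cross first and the extra cross second unless said otherwise.

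Lysine tRNAs carry lysine to the ribosome, where the anticodon CTT reads the codon AAG and the anticodon TTT reads AAA. The TTT tRNA is also the primer of reverse transcription for some retroviruses, among them mouse mammary tumour virus. In mature sperm, fragments cut from tRNAs are among the most abundant small RNAs, and many of them are gained while sperm pass through the epididymis. A value for a tRNA gene in these tables is a number of small RNA reads assigned to that gene, so it measures fragments and not intact tRNA. In such bulk samples, fewer cells of a type and less RNA per cell cannot be told apart.

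The RefSeq annotation of the mouse assembly GRCm38.p6 lists 26 lysine tRNA genes under names of its own, 24 for CTT and 2 for TTT, and each spans 73 bases. They lie on 12 chromosomes, with 5 on chromosome 13 and 3 on chromosome 17 at chr17:23533962-23534034, chr17:23535332-23535404 and chr17:23547360-23547432. Of the 26, 5 lie within the body of a GENCODE gene (Cdh19, Rinl, Gm47214, Igf1os and Trim7) and 0 overlap an exon. The sources used here do not pair RefSeq names with the names in the tables, so no value is assigned to a position.

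The RPM scale rests on 632859 and 1557766 reads for replicate 1 and on 1782506 and 4205692 reads for replicate 2. Lysine tRNA took about 17482 and 43214 of these reads in replicate 1 and 60774 and 136348 in replicate 2. MicroRNAs of spermatogenic cells were found for 4 of 4 markers and summed to 749 to 1923 RPM, with mir-449c at 0 in 1 library. Those of other cells were present as well, with 5 of 5 markers of epididymal epithelium at 2055 to 10409 RPM, 6 of 6 of smooth muscle and stroma at 3382 to 8547 RPM, and 7 of 7 of blood at 1107 to 10982 RPM. Summed epithelial markers were at 4394 against 10409 RPM for replicate 1 and 2055 against 5315 RPM for replicate 2, and stromal markers at 8547 against 3382 RPM and 6264 against 5078 RPM. The part of these cells in the lysine tRNA values was not tested.

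Lysine tRNA made up a large part of the sperm tRNA reads and did not separate the crosses. The 35 genes together came to 27624 and 27741 RPM for replicate 1 and to 34095 and 32419.9 RPM for replicate 2. The values of each replicate table lay close together, and both replicate 2 libraries lay above both replicate 1 libraries. As a share of the tRNA class, lysine took 14.6% and 11.1% in the original cross (mean 12.8% ± 2.45, SD, n = 2) and 16.0% and 11.1% in the extra cross (mean 13.6% ± 3.46, SD, n = 2). The difference of 0.747 percentage points was smaller than the SD of either cross. A two-sided exact permutation test of the cross means gave p = 0.667. With 2 libraries against 2 this test cannot go below 0.333.

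Most of this signal came from the CTT anticodon, with 25339 and 25337 RPM in the libraries of replicate 1 and 31004 and 28201 RPM in those of replicate 2. The 2 crosses were nearly equal in the replicate 1 table, and in the replicate 2 table the extra cross was at 0.910 of the original cross. The CTT sum ranked the third of 54 anticodons in each of the 4 libraries. In limma, fitted over 501 rows with tRNA genes summed by anticodon, the log2 fold change of the extra over the original cross was -0.07 ± 0.51 (SE; adjusted p = 0.994), with a 95% interval from -1.21 to 1.08. Its sign was positive when libraries were rescaled by median ratios (0.32) or the tRNA class was rescaled on its own (0.04).

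Within CTT, the 7 identical copies of group CTT-3 held 71.9% to 75.1% of reads and the 2 copies of CTT-2 held 19.6% to 26.2%. Summed over its copies, CTT-3 reached 19025 and 18669 RPM for replicate 1 and 22997 and 20270.4 RPM for replicate 2. It was the highest lysine group in all 4 libraries, and the values of the crosses overlapped. Group CTT-2 reached 4959 and 5414 RPM for replicate 1 and 7410.1 and 7399 RPM for replicate 2. On the RPM scale both of its replicate 2 libraries lay above both replicate 1 libraries, with almost no difference between crosses in the replicate 2 table. As a share of the tRNA class, CTT-2 was instead lower in replicate 2 of each cross. Copies within each group hold 1 shared value in every library, as when a read that matches several genes is divided among them, so the copies are not independent measurements.

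The balance of the abundant CTT groups moved the same way in both tables. Per gene copy, the ratio of CTT-2 to CTT-3 was 0.912 and 1.02 for replicate 1 and 1.13 and 1.28 for replicate 2. It was 1.11 times higher in the extra cross in the replicate 1 table and 1.13 times higher in the replicate 2 table, and it does not depend on how libraries are scaled. The crosses overlapped in this ratio, because it was also higher in replicate 2 than in replicate 1 of each cross. This ratio was chosen after the values were seen and was not tested.

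**Figure D1:**
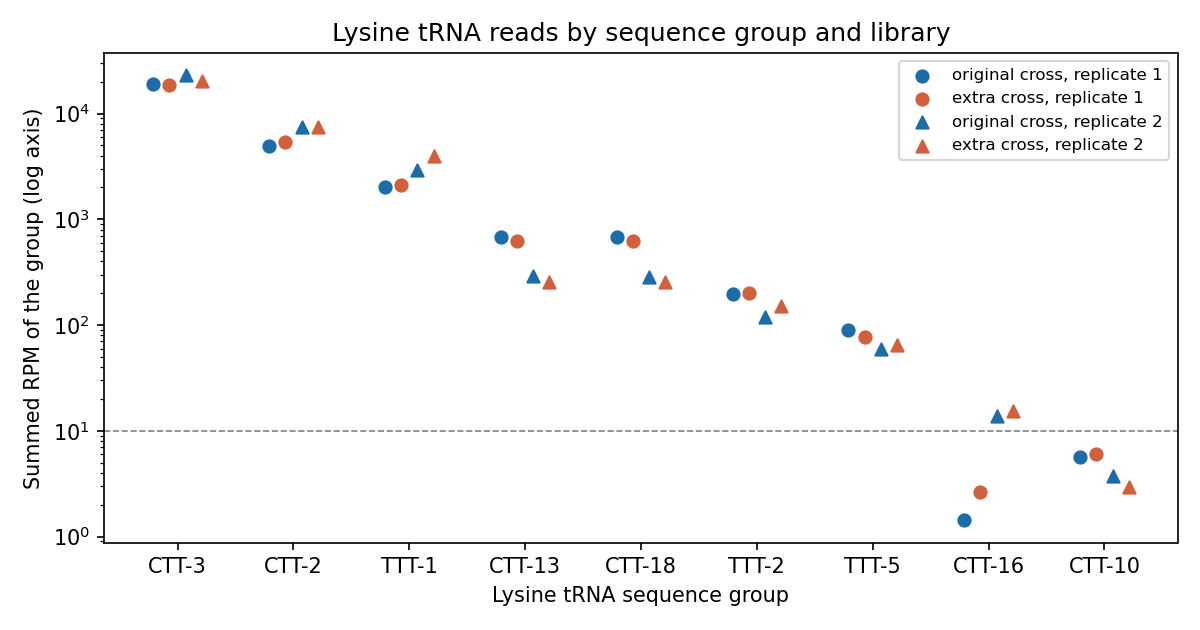
Summed RPM (log axis) of 9 lysine tRNA sequence groups, 1 point per library, with the cross in colour and the replicate in shape; the dashed line marks 10 RPM. CTT-3 lies between 18669 and 22997 RPM, while CTT-13 and CTT-18 have higher values in replicate 1 and CTT-16 in replicate 2.

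The single-gene groups CTT-13 and CTT-18 behaved as a pair and stood apart from CTT-2 and CTT-3. CTT-13 was at 674 and 621 RPM for replicate 1 and at 288 and 253 RPM for replicate 2. CTT-18 was at 673 and 621 RPM and at 288 and 253 RPM. Both replicate 1 libraries lay well above both replicate 2 libraries, while the crosses overlapped. The genes of the pair differed by only 0.50 and 0.897 reads for replicate 1 and 1.23 and 3.47 reads for replicate 2, out of 426, 968, 514 and 1066 reads on CTT-13, so their values can hardly be told apart. Where reads match both genes, the table cannot say which gene made them.

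For CTT-13, replicate 1 was 2.34 times replicate 2 in the original cross and 2.45 times in the extra cross. On the RPM scale CTT-3 went the other way, at 1.21 times and 1.09 times in replicate 2 over replicate 1. The ratio of the CTT-3 sum to CTT-13 was therefore 28.2 and 30.1 in the replicate 1 libraries of the original and extra cross and 79.7 and 80.0 in the replicate 2 libraries. Within a table this ratio hardly differed between the crosses (1.06 and 1.00 times). The tRNA class rose by more than CTT-3 from replicate 1 to replicate 2, from 189637 to 306950 RPM in the original cross. In the extra cross the class rose from 173022 to 291164 RPM. As a share of the tRNA class, CTT-3 was thus lower in replicate 2, as CTT-2 and CTT-13 were. The blood microRNA markers differed between the replicates as well, and summed to 6460 and 10982 RPM for replicate 1 but to 1219 and 1107 RPM for replicate 2. The whole microRNA class was also higher in replicate 1, at 275809 and 441544 RPM against 117322 and 140437 RPM. So were the summed spermatogenic and epithelial markers, and the stromal markers in the original cross only. The part of blood cells in the lysine values was not tested.

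Of the other 14 CTT groups, CTT-16 and CTT-10 alone exceeded 2 RPM in any library. CTT-16 was at 1.43 and 2.63 RPM for replicate 1 and at 13.7 and 15.3 RPM for replicate 2. It was 9.59 times and 5.82 times higher in replicate 2 of the original and extra cross, with the replicate 1 values resting on 0.902 and 4.10 reads. The single gene of CTT-10 was instead lower in replicate 2, at 5.61 and 6.01 RPM for replicate 1 and 3.77 and 2.94 RPM for replicate 2, which stands for 3.55, 9.36, 6.72 and 12.4 reads. The replicate 2 values of CTT-16 rest on 24.4 and 64.4 reads, and in that table the extra cross was at 1.12 times the original cross. Neither group reached the test minimum.

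The anticodon TTT summed to 2286 and 2404 RPM for replicate 1 and to 3090.2 and 4219 RPM for replicate 2. On this scale both replicate 2 libraries lay above both replicate 1 libraries, with extra-cross replicate 2 the highest, and the crosses overlapped. As a share of the tRNA class, TTT took 1.21% and 1.39% for replicate 1 and 1.01% and 1.45% for replicate 2. The extra cross was at 1.05 times the original cross in the replicate 1 table and at 1.37 times in the replicate 2 table. In the limma fit by anticodon the log2 fold change was 0.26 ± 0.76 (SE; adjusted p = 0.994), with a 95% interval from -1.46 to 1.98. Each library moved this value when left out: it was 0.043 without original-cross replicate 1, 0.48 without original-cross replicate 2, 0.67 without extra-cross replicate 1 and -0.14 without extra-cross replicate 2.

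The most abundant TTT group was TTT-1, whose 6 identical copies held 87.5% to 94.9% of TTT reads. Its sum was 2000.4 and 2122 RPM for replicate 1 and 2913 and 4002 RPM for replicate 2, which is 333, 354, 485 and 667 RPM per copy. Extra-cross replicate 2 was again the highest library, and the order of the libraries was that of the TTT sum. The log2 fold change in limma was 0.27 ± 0.74 (SE; adjusted p = 0.995), and between -0.19 (without extra-cross replicate 2) and 0.73 (without extra-cross replicate 1) with 1 library left out.

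Groups TTT-2 and TTT-5 were far lower and, like CTT-13, higher in replicate 1. The 2 copies of TTT-2 summed to 196 and 203 RPM for replicate 1 and to 118 and 151 RPM for replicate 2. TTT-5 was at 89.3 and 77.6 RPM for replicate 1 and at 59.1 and 65.2 RPM for replicate 2, so that the crosses overlapped in both groups. The ratio of the TTT-1 sum to the TTT-2 sum was 10.2 and 10.4 in the replicate 1 libraries of the original and extra cross and 24.7 and 26.6 in the replicate 2 libraries. Within their anticodons, TTT-2, TTT-5, CTT-13 and CTT-18 made up a larger part in replicate 1 than in replicate 2 of either cross. Within CTT, CTT-2 and CTT-16 went the other way. The remaining TTT gene, TTT-3, was at 0 and 0.642 RPM for replicate 1 and at 0.374 and 0.816 RPM for replicate 2.

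**Figure D2:**
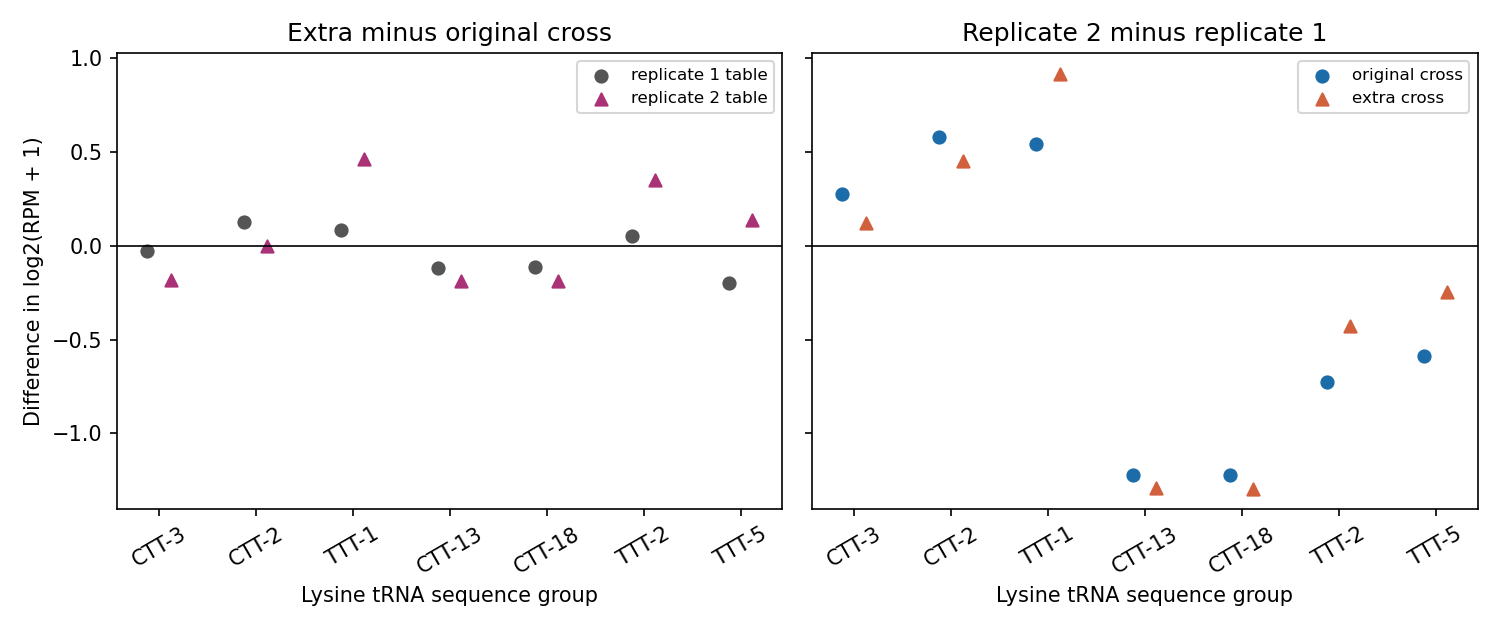
Difference in log2(RPM + 1) for the 7 tested lysine tRNA groups, extra minus original cross within each replicate table (left) and replicate 2 minus replicate 1 within each cross (right). Points on the left lie between -0.20 and 0.46, and points on the right between -1.29 and 0.91.

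The proportion of the 2 anticodons differed most in 1 library. TTT took 8.27% and 9.06% of lysine tRNA reads in the original cross (mean 8.67% ± 0.558, SD, n = 2) and 8.66% and 13.0% in the extra cross (mean 10.8% ± 3.08, SD, n = 2). Extra-cross replicate 2 stood above the rest, and the other 3 libraries lay within 1 percentage point. The difference of 2.17 percentage points lay just below the pooled SD of 2.21, and the crosses overlapped. A two-sided exact permutation test of the cross means gave p = 0.667. Within the tables the extra cross was higher, by 0.391 percentage points for replicate 1 and by 3.95 for replicate 2. Counted with 1 gene for each set of genes that hold identical values, the TTT share was 7.361% and 7.373% in the original cross and 7.45% and 10.2% in the extra cross. This count leaves out the RPM of the other copies, so it is not the TTT share of all lysine reads. The crosses then did not overlap, with extra-cross replicate 1 only 0.0878 percentage points above the original cross of its table, and the difference was 1.45 percentage points against a pooled SD of 1.37 (p = 0.333 in the same exact test, the smallest it can give). The ratio of CTT to TTT reads was 11.1 and 10.5 for replicate 1 and 10.03 and 6.68 for replicate 2.

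**Figure D3:**
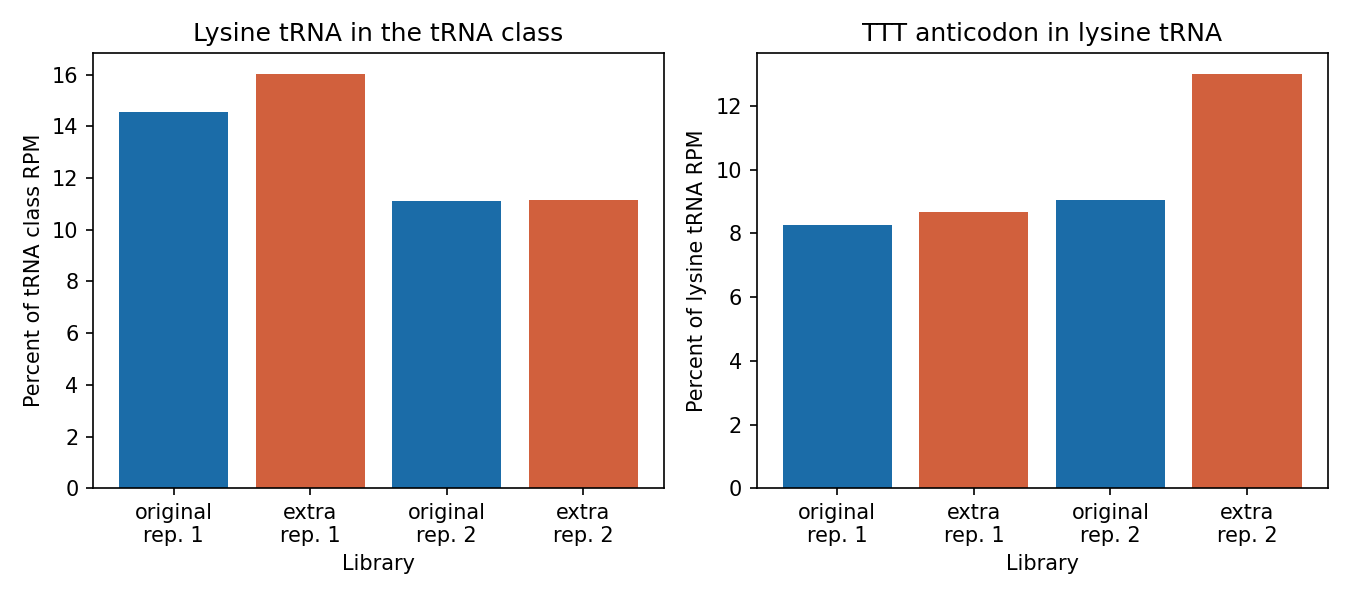
Lysine tRNA as a percent of tRNA class RPM (left) and the TTT anticodon as a percent of lysine tRNA RPM (right), 1 bar per library. The lysine share is 14.6% and 16.0% in replicate 1 and 11.1% in both libraries of replicate 2, and the TTT share is highest in extra-cross replicate 2 at 13.0%.

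The remaining 13 groups, 12 of CTT and TTT-3, each had at most 1.19 RPM and at most 4.34 reads in any library. All 15 groups under the test minimum, CTT-16 and CTT-10 included, together made up 0.0319% and 0.0630% of lysine RPM in the original cross and 0.0498% and 0.0796% in the extra cross. Of the 15, 9 and 6 were at 0 in the libraries of replicate 1 and 3 and 0 in those of replicate 2. The number at 0 was lowest in the most deeply sequenced library, and 6 of the 35 genes were listed in the replicate 2 table only. No fold change is given for the 13.

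Tests were run on values of log2(RPM + 1) for rows with a mean of at least 10 RPM, which 20 of 35 lysine genes and 7 of 22 groups reached. The 20 genes hold only 7 distinct sets of values. In the fit of single features by limma, 0 of 20 lysine genes reached an adjusted p of 0.05 (Benjamini-Hochberg), and unadjusted p was below 0.05 for 0 of 20. Over all 760 features 0 passed (0%), and 112 fell below 0.05 before adjustment. Of the 306 tRNA genes tested, 0 fell below 0.05 before adjustment, so the lysine genes did not differ from other tRNA genes in this. With tRNA genes summed by sequence group 0 of 7 lysine groups passed, of 613 rows of which 0 passed (0%), and by anticodon 0 of 2, of 501 rows of which 0 passed (0%). The median log2 fold change of the 7 groups was -0.03, against -0.11 over the 159 tRNA groups tested and -0.13 over all 613 rows.

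Between the crosses, 2 of the 7 groups were higher in each extra-cross library than in the original-cross library of its table (TTT-1 and TTT-2), against 21% of the 613 rows, and 3 were lower in each (CTT-3, CTT-13 and CTT-18), against 45.8%. For 0 of 7 groups did both extra-cross libraries lie above both original-cross libraries (5.22% of all rows and 3.14% of 159 tRNA groups). For 0 of 7 did they lie below them (31.6% of all rows and 15.7% of the tRNA groups). In all counts of the 7, CTT-13 and CTT-18 enter as 2 groups, although their values can hardly be told apart. These directions are those of the RPM scale, and rescaling by median ratios raised the log2 fold changes of CTT-3, CTT-13 and CTT-18 to 0.25, 0.21 and 0.21. In 6 of 7 groups the difference between replicates was larger in each cross than the difference between crosses in either table. The exception was CTT-3, with log2 differences of 0.27 and 0.12 between replicates and of -0.03 and -0.18 between crosses. The same count was not made over the 613 rows, so larger differences between replicates are not shown to be particular to lysine tRNA.

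The differences of both lysine anticodons between the crosses lay within the range of the other anticodons. Values here are RPM sums that are not divided by length, and RefSeq lengths of the anticodons named run from 70 to 82 bases. More reads than on Lys-CTT fell only on Glu-CTC, at 38466 and 32198 RPM for replicate 1 and 107037 and 100810.0 RPM for replicate 2, and on Val-CAC, with a mean of 34988 RPM. Glu-TTC and Val-AAC came next below Lys-CTT, with means of 12624 and 11896 RPM where Lys-CTT had 27470.3 RPM. The Glu-CTC sum was 1.52 and 1.27 times the Lys-CTT sum for replicate 1 and 3.45 and 3.57 times for replicate 2, whereas the Val-CAC sum stayed at 1.18 to 1.37 times. The neighbours of Lys-TTT in mean level were Leu-AAG above and Cys-GCA below, with means of 3256 and 2983 RPM against 2999.7 RPM.

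Of the 45 other anticodons that reached the minimum mean of 10 RPM, 5 were higher in both extra-cross libraries than in the original-cross library of the same table, 19 were lower in both and 21 differed in direction. Lys-TTT was higher in both and Lys-CTT lower in both, although by less than 0.01 on the log2 scale in the replicate 1 table; over the 501 rows the shares were 20.6% and 46.9%. Their mean log2 differences ranked the fifth and the 22nd highest of 47 anticodons. The median over the 45 others was -0.09, with -0.20 in the replicate 1 table and -0.05 in the replicate 2 table. Of the 45, 29 were higher in replicate 2 than in replicate 1 in both crosses, as both lysine anticodons were.

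**Figure D4:**
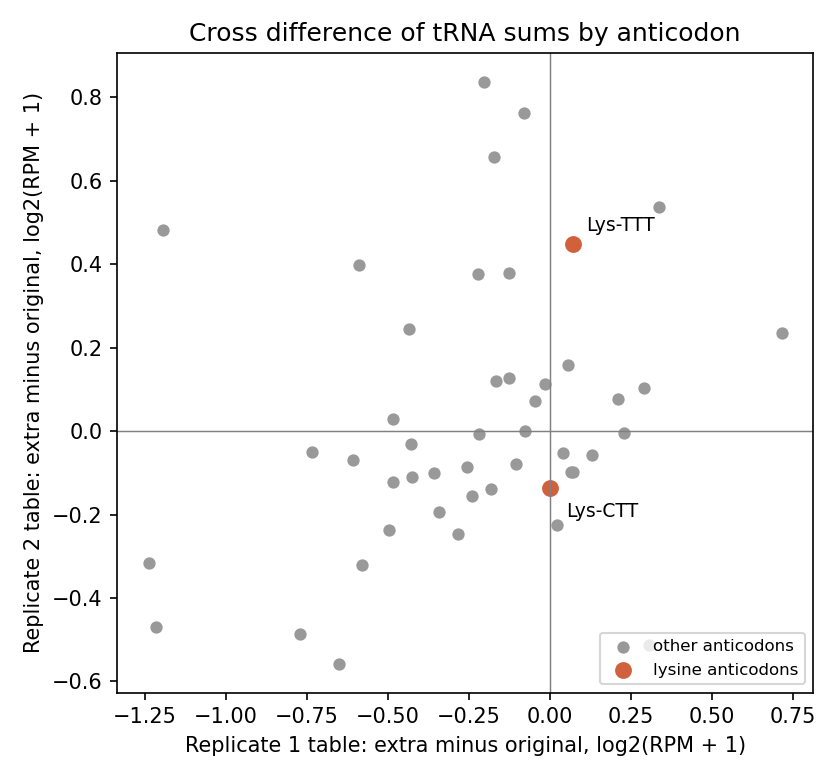
Extra minus original cross in log2(RPM + 1) for tRNA sums of 47 anticodons, replicate 1 table on the horizontal and replicate 2 table on the vertical axis. Lys-CTT lies near 0 in both tables (0.00 and -0.14), and Lys-TTT at 0.07 and 0.45.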

How the data were processed

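Small RNA was sequenced from sperm of 4 mice. Per the labels' protocols, Trizol RNA of each mouse was selected by size on a gel, and TruSeq small RNA libraries were run in 1 lane. Named in the submitters' processing notes are Bowtie 1.1.2, CASAVA 1.8.2 and the build mm10. How reads were trimmed, annotated and, where they match several places, assigned is not given in the sources used here. Values were deposited in RPM, the unit that the authors name in the column headers. Features absent from 1 table were set to 0 there. The commonest microRNA value was taken as 1 read (1.58 to 0.238 RPM). Among tRNA gene values of 1 to 1000 reads, 9.98% were whole within 0.02 reads and 29.3% of anticodon sums, so no count model was run.

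Cross type was the only term in limma 3.58.1 (R 4.3.3, variance trend) on log2(RPM + 1), after leaving out rows with a mean below 10 RPM. RefSeq transcripts were left out. Calls used a Benjamini-Hochberg adjusted p of 0.05. Other steps used numpy 2.4.6, pandas 2.3.3 and matplotlib 3.10.9 in Python 3.11.15. The text names each lysine sequence group with an interpretable value, the 5 most abundant anticodons and those next to the lysine ones. Members and lists were chosen with earlier results of these data known. Alternatives were other pseudocounts, filters and scalings, shares from 1 gene for each set of identical values, a replicate block and leaving out each library.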

Additional observations from a re-analysis of the deposited data

How the results depend on the processing

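None of the alternatives made a lysine gene or group pass the test: the count was 0 under other pseudocounts (0.1 and 10 RPM), filters (a mean of 1 RPM, or none), scalings, a replicate block and without each library (0 to 0). Rescaling by median ratios moved the median log2 fold change of 613 rows from -0.13 to 0.22, and it turned the signs of the Lys-CTT sum (0.32), CTT-3 (0.25), CTT-13 (0.21), CTT-18 (0.21) and TTT-5 (0.32). With the tRNA class rescaled on its own the Lys-CTT sum was at 0.036 and TTT-5 at 0.071, from -0.07 and -0.03. Leaving out 1 library lets the difference between the tables into the value, and the log2 fold changes then ranged from -0.21 to 0.077 for the Lys-CTT sum, -0.14 to 0.67 for the Lys-TTT sum, -0.24 to 0.032 for CTT-3, -0.23 to 0.35 for CTT-2, -0.80 to 0.49 for CTT-13 and for CTT-18, -0.19 to 0.73 for TTT-1, -0.16 to 0.56 for TTT-2 and -0.32 to 0.26 for TTT-5. The lone library of a cross is then assumed to vary like the others. Differences in share ranged from -1.70 to 3.20 percentage points for lysine in the tRNA class and from -0.00397 to 4.34 for TTT in lysine tRNA. Other rows did pass under 3 settings. With a replicate block these were 171 of 760 single features, 136 of 613 rows by sequence group and 145 of 501 by anticodon, none of them lysine. Few other tRNA rows passed with the block either: 14 of 306 tRNA genes, 1 of 159 tRNA groups and 1 of 47 anticodons. Under median ratios 62 of 501 rows by anticodon passed, with 0 of 47 anticodons among them. The third setting left out original-cross replicate 2. With the block adjusted p was 0.476 to 0.962 over the 7 groups. Same-numbered libraries deviated together, with a correlation of 0.872 over 760 features, 0.780 over 613 rows by sequence group and 0.730 over 501 by anticodon. However, nothing in the labels says that a number marks a pair. Depth limits the 15 low groups, most of which rest on under 5 reads.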
